A study of Homo sapiens with 8 samples.

Results

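The genes examined were the receptors NOTCH1, NOTCH2 and NOTCH3, the nuclear partners RBPJ and MAML1, and the direct targets HES1, HES4, HEY1, DTX1 and NRARP. The members were all probe sets whose single platform gene symbol was one of these names, which gave 20 probe sets of the 54613 tested, for 10 of the 19775 genes measured by a single-symbol probe set. NOTCH2 had 4 probe sets, HES1 and RBPJ had 3 each, NOTCH1, NOTCH3 and HEY1 had 2 each, and the other genes had 1 each. A further probe set carries NOTCH2 together with symbols of the NOTCH2NL genes, so it was left out. Of the 20 probe sets, 16 had a mean over all arrays above 4.73, the highest value among the negative controls, and 4 did not: the dimmest probe set of NOTCH1, NOTCH2, RBPJ and HEY1. Where a gene had several probe sets, they are named by their order of mean level over all arrays.

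The cells were CCRF-CEM-C7-14, a clonal line from a human T-cell leukaemia that stays sensitive to glucocorticoids. Total RNA was hybridised to 8 expression arrays: 3 from untreated cells at 0 h, 3 from cells kept 2 h in 1 µM dexamethasone, a synthetic glucocorticoid, and 2 from cells kept 10 h in it. Before any hormone, cells of all 3 times received medium whose serum had been stripped of steroids with charcoal. Vehicle-treated cells at the later times were not analysed here, so an effect of hormone and one of time in stripped medium cannot be told apart. Arrays of a time are labelled biological replicates without a word on separate cultures, and the p-values therefore measure only the spread between these samples, which may be technical. The question the times pose is which transcripts differ after 2 h or 10 h of hormone.

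The Notch pathway carries signals between touching cells. A ligand on a neighbouring cell exposes the receptor to cleavage, and the freed intracellular part of the receptor enters the nucleus, where it joins the DNA-binding protein RBPJ and the coactivator MAML1 to switch on genes such as HES1. The pathway directs early thymocytes into the T lineage, and activating changes in NOTCH1 are common in T-cell acute lymphoblastic leukaemia. HES1, a repressor of transcription, is also known to oppose glucocorticoid receptor expression in leukaemic T cells.

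RBPJ binds the motif GTGNGAA, and a pair of such motifs facing each other is known from the HES1 promoter as a place where 2 Notch complexes bind side by side. The RefSeq promoter windows of GRCh38.p14 hold 250 bases before and 50 after each start site, and 8 of the 10 members were matched in them; HEY1 and DTX1 were not. The windows of HES1, at chr3:194135898-194136197 on the plus strand, and HES4, at chr1:1000048-1000347 on the minus strand, are printed because they hold that paired arrangement; capitals mark GTGNGAA and its reverse complement TTCNCAC.
HES1: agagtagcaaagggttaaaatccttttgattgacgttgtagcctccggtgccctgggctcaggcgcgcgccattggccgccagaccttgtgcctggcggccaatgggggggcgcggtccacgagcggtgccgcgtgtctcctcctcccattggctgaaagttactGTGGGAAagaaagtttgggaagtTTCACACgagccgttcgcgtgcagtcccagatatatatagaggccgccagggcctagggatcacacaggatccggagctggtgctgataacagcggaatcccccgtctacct
HES4: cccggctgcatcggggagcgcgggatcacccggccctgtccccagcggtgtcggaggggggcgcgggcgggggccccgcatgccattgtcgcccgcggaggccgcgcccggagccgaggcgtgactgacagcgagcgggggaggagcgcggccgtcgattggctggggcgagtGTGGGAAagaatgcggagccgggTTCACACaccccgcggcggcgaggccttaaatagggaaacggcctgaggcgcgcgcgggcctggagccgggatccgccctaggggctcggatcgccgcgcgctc
In HES1 the matches begin at -85 and -62, and in HES4 they begin at -77 and -54, counted from the start site as base 1. Both pairs are separated by 16 bases. The arrangement GTGNGAA, then 15 to 17 bases, then TTCNCAC, was found in 4 of 35116 windows, which is 0.0114%, while a GTGNGAA match on either strand was found in 13.8% of windows. The second of the 5 RBPJ start sites also had 2 matches, at -115 and -73, which do not face each other in that arrangement. None of the windows of NOTCH1, NOTCH2, NOTCH3, MAML1 and NRARP held a match. Beside these, the HES1 window held 4 matches to CACNAG or its reverse complement CTNGTG, the N box to which HES proteins bind, at -165, -132, -58 and 16. The match at -58 shares bases with the TTCACAC at -62. At least 1 such match was found in 38.0% of windows, and 4 or more in 0.293%. NOTCH1 and the first RBPJ start site held 2 each, NOTCH2, NOTCH3, MAML1 and NRARP held 1 each, and HES4 and the other RBPJ start sites held none. The palindromic glucocorticoid response element, searched as GNACA and TGTNC with 3 bases between them, reads the same on both strands and was found in 0.39% of windows and in no window of the 8 matched members. A match is a run of letters and does not show that a protein binds there.

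Expression is given on the deposited log2 scale, and a difference is the later time minus the earlier one on that scale. Levels are not compared between probe sets, whose scales differ. HES1 was the only member with a called difference. At 10 h it was lower than at 0 h on 2 of its 3 probe sets, by 2.67-fold and 2.85-fold. In the fit as reported these were 2 of the 3 probe sets of the whole table called lower. The third was APLN, which encodes a peptide hormone, and the total of 3 differed under other processing. The other 18 member probe sets were not called at 10 h, and none of the 20 was called at 2 h. Calls are at a Benjamini-Hochberg adjusted p below 0.05 from limma over all 54613 probe sets, and the same 0 h arrays serve both comparisons with 0 h. At 10 h, 2 of the 20 members were called, both lower, against 0.251% of all probe sets called in either direction and 0.00549% called lower.

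The brightest HES1 probe set read 7.67, 7.81 and 7.65 at 0 h, 7.30, 7.20 and 7.52 at 2 h, and 5.95 and 6.64 at 10 h. Every array at 10 h was below every array at 2 h, every array at 2 h was below every array at 0 h, and the wider gap lay between 2 h and 10 h. Against 0 h, the log2 difference at 10 h was -1.42 (SE 0.22, 95% interval -1.89 to -0.95, limma adjusted p = 0.00767). The second HES1 probe set had 7.08, 7.44 and 6.97 at 0 h, 6.60, 6.73 and 7.18 at 2 h, and 5.34 and 5.96 at 10 h. Here the 2 h arrays overlapped those at 0 h, and both 10 h arrays lay below all others. Its log2 difference at 10 h was -1.51 (SE 0.24, 95% interval -2.03 to -0.99, limma adjusted p = 0.0106). In terms of fold, the intervals ran from 1.93 to 3.71 times lower for the brightest and from 1.99 to 4.08 times lower for the second.

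The dimmest HES1 probe set was close to background, with a mean of 4.77 over all arrays. Its values were 4.87, 4.79 and 5.23 at 0 h, 4.84, 4.75 and 4.46 at 2 h, and 4.45 and 4.75 at 10 h. The 10 h arrays lay below those at 0 h, with a log2 difference of -0.37 (95% interval -0.82 to 0.09, limma adjusted p = 1.00). The probe sets of HES1 thus differ in the size of the difference, and the one with the smallest difference is the one nearest the negative controls.

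**Figure D1:**
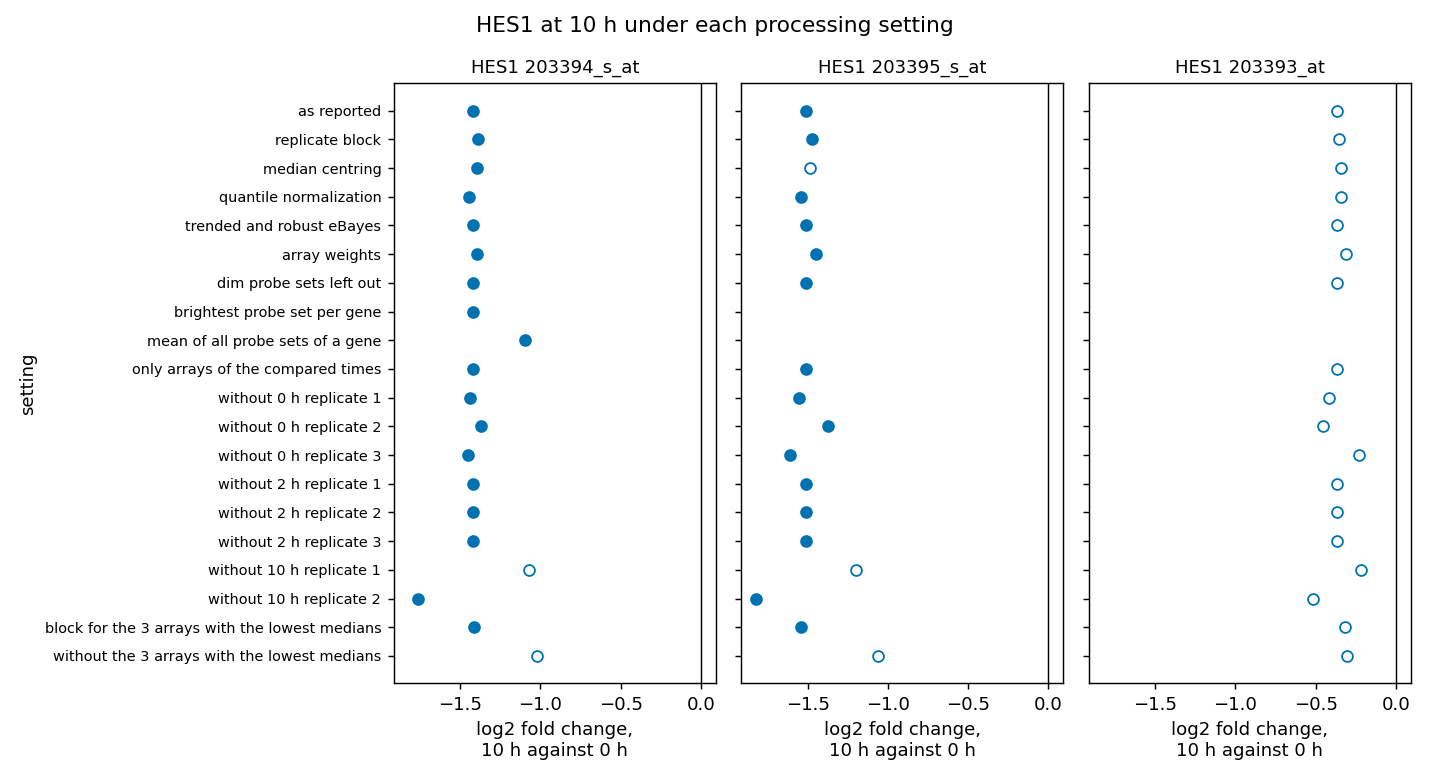
Log2 difference at 10 h against 0 h of the brightest, second and dimmest HES1 probe set, left to right, as reported and under each alternative; filled points were called, and settings with 1 value per gene stand in the left panel. Every value lies below 0, and those of the 2 brighter probe sets are nearer to 0 without 10 h replicate 1 (-1.07 and -1.20) and without the 3 arrays with the lowest medians (-1.02 and -1.06).

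The 2 arrays at 10 h differed from each other, and the HES1 calls rested on the lower of them, 10 h replicate 1. Without it, the log2 differences were -1.07 for the brightest and -1.20 for the second probe set, with limma adjusted p = 0.295 and 0.335, so neither was called. That leaves 1 array at 10 h, which is assumed to vary like those of the other times. That array is also 1 of 3 with the lowest medians, with 0 h replicate 2 and 2 h replicate 3, which stand apart on the first principal component, with 36.9% of the variance. Inside that set of 3, the log2 difference of the brightest HES1 probe set at 10 h was -1.86, and among the other 5 arrays it was -1.02. For the second the values were -2.10 and -1.06. The low-median set holds 1 array per time, and the other set also holds 1 array at 10 h. Neither within-set difference thus rests on replicate arrays at 10 h. The direction was the same in both sets, and the size was smaller in the set of 5. Without the 3 arrays, again with 1 array left at 10 h, the limma adjusted p was 0.346 and 0.319. With all arrays and a block for the 3, the differences were -1.41 and -1.54, with limma adjusted p = 0.0126 and 0.0152, so both were called. Both of these comparisons were chosen after seeing the data. The actin 3'-minus-5' difference, a sign of RNA integrity, was 0.29 and 0.36 at 10 h, against 0.57, 0.32 and 0.67 at 0 h, and its part in the result was not tested.

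At 2 h the HES1 differences from 0 h were -0.37 (95% interval -0.79 to 0.05) for the brightest probe set, -0.32 (-0.79 to 0.14) for the second and -0.28 (-0.69 to 0.12) for the dimmest. None was called. The brightest was the only member whose arrays did not overlap between 2 h and 0 h, and it was lower; of all probe sets 4.13% did not overlap, 1.37% lower and 2.77% higher. Against 2 h, the 10 h values were lower by log2 differences of -1.05 and -1.19 on the 2 brighter probe sets, with limma adjusted p = 0.154 and 0.124, so these were not called. Over all 20 members, 0 were called at 2 h against 0 h, where 0.00916% of all probe sets were, and 0 had an unadjusted p below 0.05, where 1.10% of all probe sets did. Between 10 h and 2 h, 0 of 20 members were called, and of all probe sets 0.108% were, 0.106% higher and 0.00183% lower. In that comparison 4 members had an unadjusted p below 0.05, and 2.53% of all probe sets did.

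**Figure D2:**
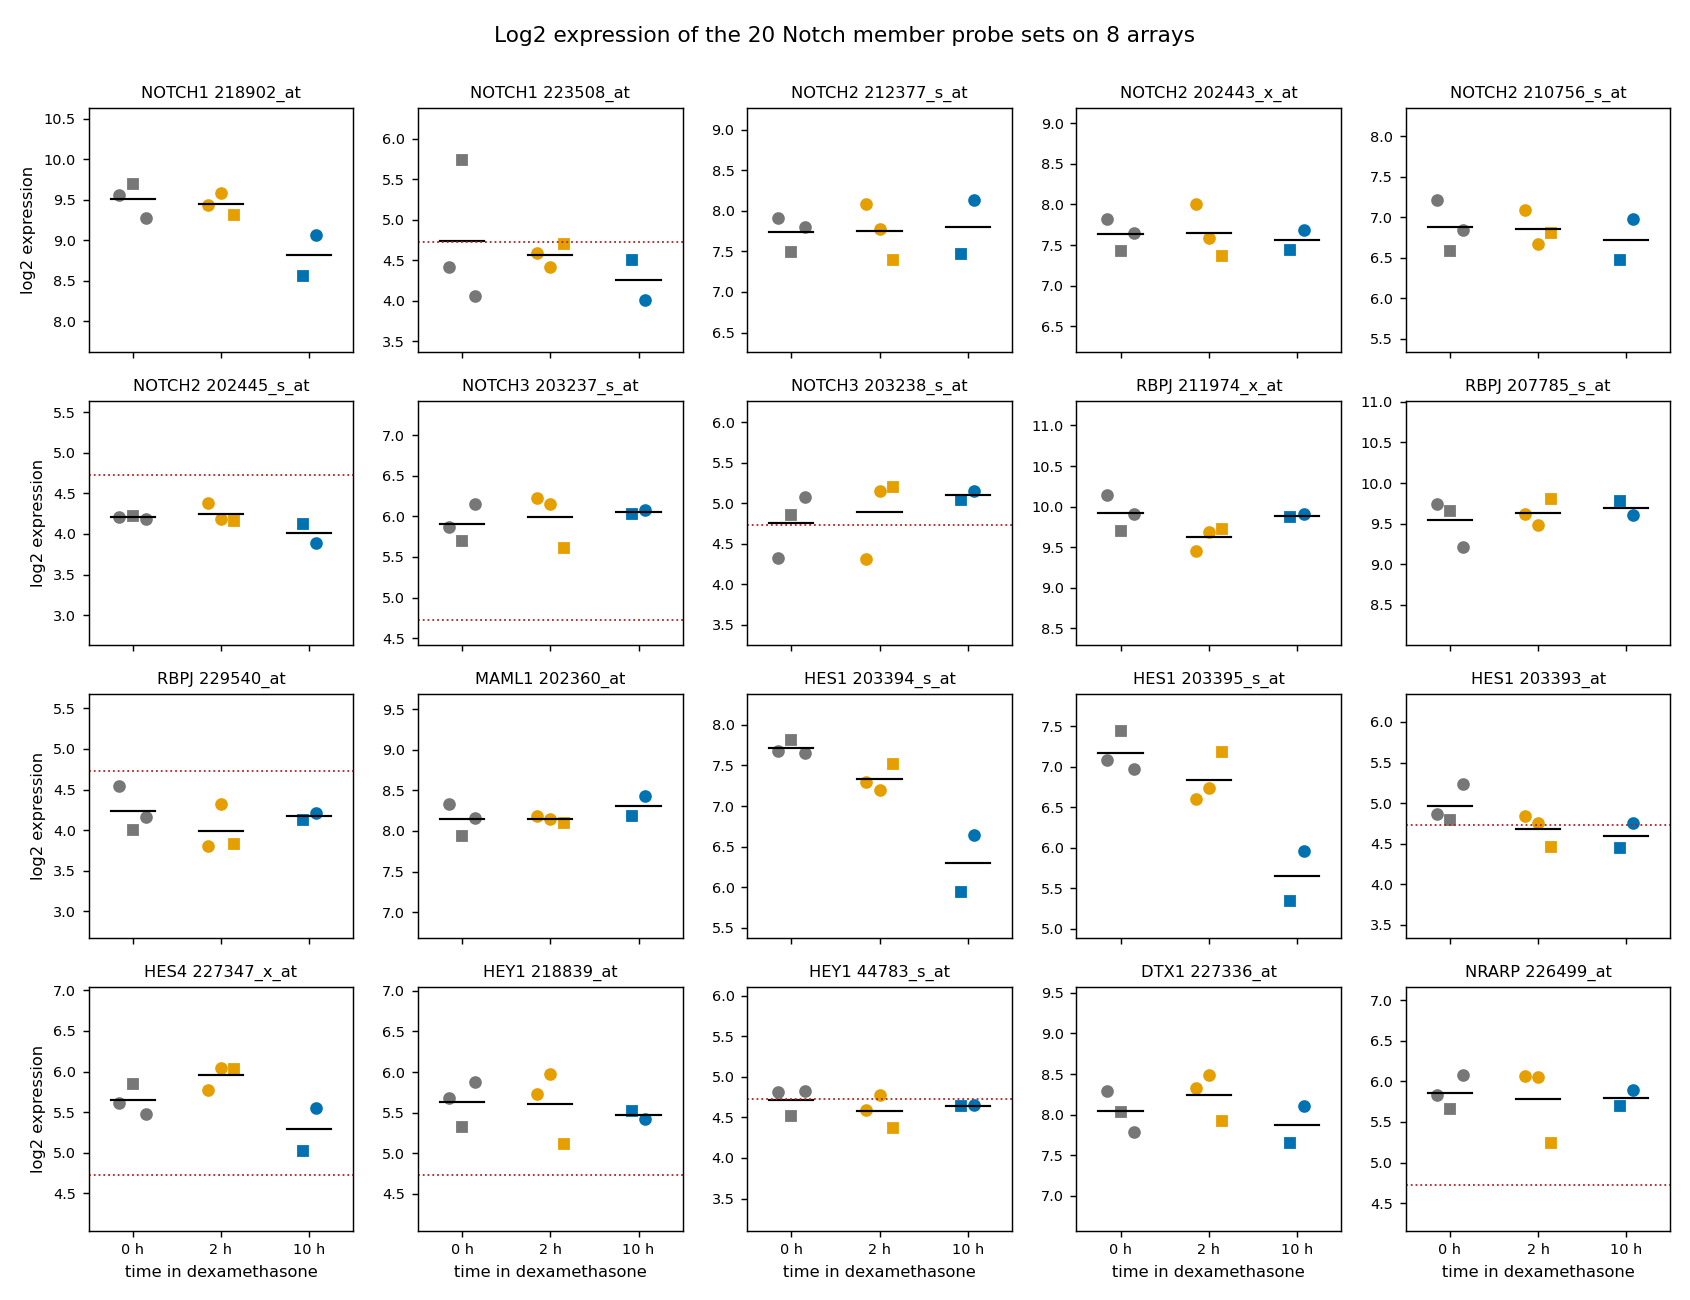
Log2 expression of the member probe sets in each array at 0, 2 and 10 h, with the mean of each time as a bar; squares are the 3 arrays with the lowest medians, and the dotted line is the highest negative control. The brighter HES1 probe sets lie between 5.34 and 6.64 at 10 h, and the brighter NOTCH1 probe set lies at 8.56 and 9.07 at 10 h, below its lowest value at 0 h of 9.27.

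Among the receptors, the brighter NOTCH1 probe set read 9.56, 9.69 and 9.27 at 0 h, 9.44, 9.59 and 9.31 at 2 h, and 8.56 and 9.07 at 10 h. The 10 h arrays lay below all those of both earlier times, and those of 0 h and 2 h overlapped. The log2 difference from 0 h was -0.69 at 10 h (SE 0.22, 95% interval -1.15 to -0.23), and the limma adjusted p of 0.748 did not pass. It was -1.13 inside the low-median set of 3 arrays and -0.35 among the other 5, each with 1 array at 10 h. At 2 h it was -0.06 (95% interval -0.47 to 0.35). The dimmer NOTCH1 probe set had a mean below the highest negative control and differed by -0.48 at 10 h, with arrays that overlapped.

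NOTCH2, a second receptor of the family, had 3 probe sets above the negative controls. The brightest of them read 7.92, 7.50 and 7.80 at 0 h, 8.08, 7.77 and 7.39 at 2 h, and 7.47 and 8.13 at 10 h. The spread within a time was as large as any difference between times, and the log2 difference at 10 h was 0.06 (95% interval -0.47 to 0.59). The other NOTCH2 probe sets differed at 10 h by -0.07 for the second, -0.15 for the third and -0.20 for the dimmest. The left-out probe set, shared with the NOTCH2NL genes, had a difference of 0.21. NOTCH3, a receptor that is also a target of the pathway in T-cell leukaemia, read 5.86, 5.70 and 6.15 at 0 h, 6.23, 6.16 and 5.60 at 2 h, and 6.03 and 6.08 at 10 h on its brighter probe set. These groups overlapped, with a log2 difference at 10 h of 0.15 (95% interval -0.33 to 0.63), and the dimmer one gave 0.35 (-0.25 to 0.94).

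No probe set of the nuclear partners was called at any time. RBPJ, the DNA-binding subunit, read 10.14, 9.70 and 9.92 at 0 h, 9.45, 9.69 and 9.72 at 2 h, and 9.88 and 9.90 at 10 h on its brightest probe set. Its log2 difference at 10 h was -0.03 (95% interval -0.45 to 0.40), that of the second was 0.15 (-0.30 to 0.60), and that of the dimmest was -0.06. On the brightest RBPJ probe set the 10 h arrays were above those at 2 h without overlap, by 0.27, and this difference was not called. MAML1, the coactivator, read 8.34, 7.94 and 8.17 at 0 h, 8.19, 8.15 and 8.10 at 2 h, and 8.18 and 8.43 at 10 h. These overlapped, with a log2 difference at 10 h of 0.16 (95% interval -0.26 to 0.58).

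Of the direct targets other than HES1, HES4, a repressor closely related to HES1 that mice lack, read 5.61, 5.85 and 5.48 at 0 h, 5.77, 6.05 and 6.03 at 2 h, and 5.02 and 5.56 at 10 h. At 2 h its log2 difference from 0 h was 0.31 (95% interval -0.10 to 0.72), and the 10 h arrays lay below all those of 2 h. Between 10 h and 2 h the log2 difference was -0.66 (SE 0.22, 95% interval -1.12 to -0.20), with an unadjusted p of 0.0077 and a limma adjusted p of 1.00. Against 0 h the difference at 10 h was -0.36 (95% interval -0.81 to 0.10). It was -0.82 inside the low-median set and 0.01 among the other 5 arrays, each with 1 array at 10 h.

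DTX1, a ubiquitin ligase that regulates Notch, read 8.29, 8.04 and 7.79 at 0 h, 8.32, 8.49 and 7.92 at 2 h, and 7.64 and 8.11 at 10 h. NRARP, which dampens the Notch complex, read 5.84, 5.66 and 6.08 at 0 h, 6.07, 6.05 and 5.24 at 2 h, and 5.70 and 5.89 at 10 h. HEY1, a repressor of the same family as HES1, read 5.68, 5.32 and 5.88 at 0 h, 5.72, 5.97 and 5.12 at 2 h, and 5.52 and 5.42 at 10 h on its brighter probe set. For these 3 genes the arrays of all 3 times overlapped. The log2 differences at 10 h were -0.16 for DTX1 (95% interval -0.66 to 0.34), -0.06 for NRARP (-0.60 to 0.47) and -0.16 for that of HEY1 (-0.69 to 0.38), whose dimmer probe set gave -0.07. These intervals reach down to -0.69 and do not show that these transcripts stayed the same. Whether they differ from HES1 in their response was not tested.

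**Figure D3:**
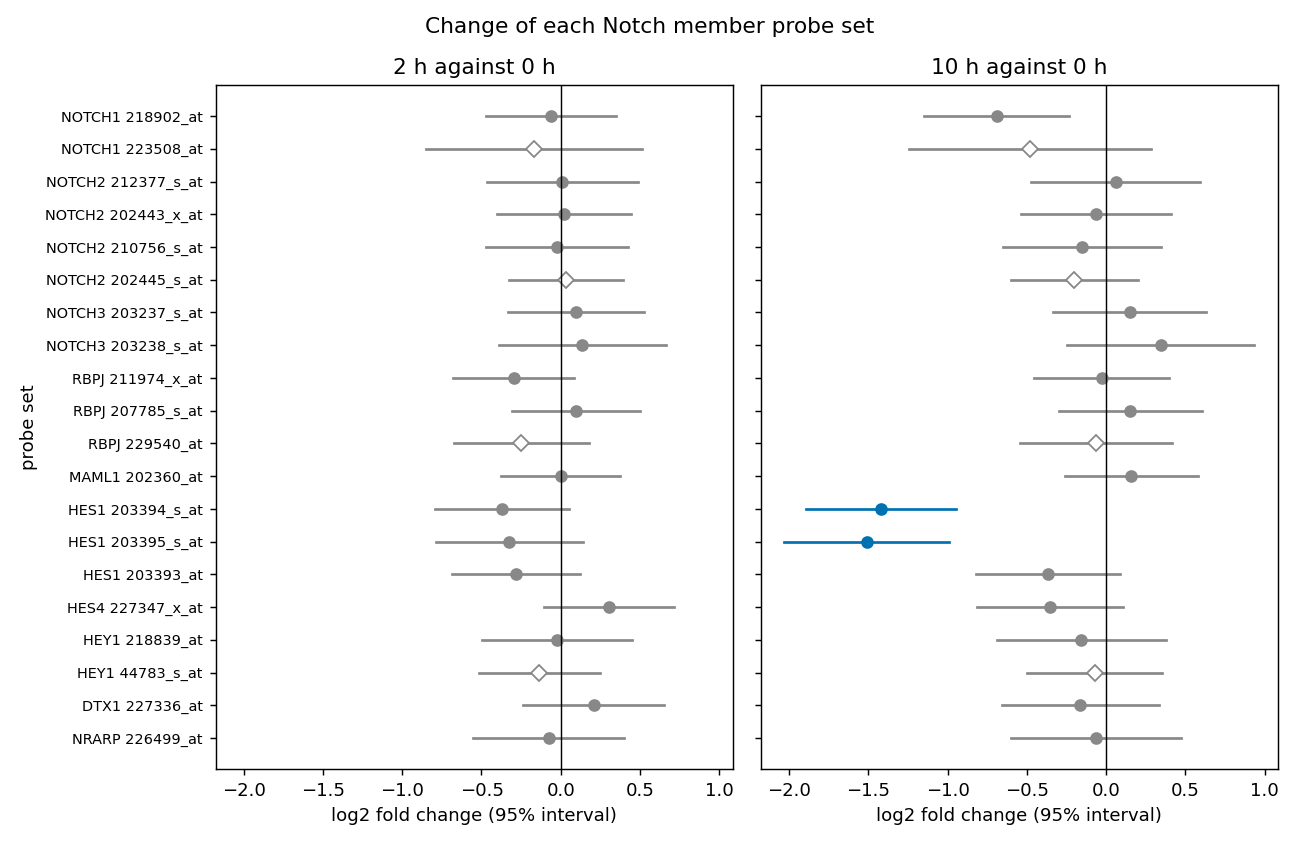
Log2 difference of each member probe set with its 95% interval, for 2 h and for 10 h, each against 0 h. Blue marks called probe sets and open diamonds those with a mean below the highest negative control. The brighter HES1 probe sets are the only members called at 10 h against 0 h, and the 20 differences at 2 h run from -0.37 to 0.31.

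Across the 20 members at 10 h against 0 h, 15 differences were negative, with a median of -0.11, and 56.3% of all probe sets were negative, with a median of -0.03. The groups did not overlap for 5 members, all lower, against 12.1% of all probe sets in either direction, 6.19% lower and 5.92% higher. These 5 were the 3 HES1 probe sets, the brighter one of NOTCH1 and the dimmest of NOTCH2. The mean of that NOTCH2 probe set is below the highest negative control. An unadjusted p below 0.05 was reached by 3 members and by 2.68% of all probe sets. At 2 h, 8 differences were positive and 12 were negative, with a median of -0.02. Between 10 h and 2 h, 5 members were lower and 1 was higher without overlap, against 13.4% of all probe sets in either direction, of which the lower ones made up 8.35%.

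The other genes of the pathway were 77 genes in 9 lists, of which 73 were measured, by 188 probe sets. At 10 h, 3 of the 188 were called, all higher, against 0.245% of all probe sets called higher. At 2 h none was called, against 0.00916% of all probe sets, and 3 had an unadjusted p below 0.05, against 1.10%. The 3 called at 10 h were in a list of known Notch targets of T-cell leukaemia with 12 genes and 34 probe sets, of which 16 differences were positive and 18 negative. IL7R, the receptor for the T-cell growth factor interleukin-7, was called on both of its probe sets. On the dimmer one it read 4.67, 4.92 and 4.84 at 0 h, 5.13, 5.47 and 5.12 at 2 h, and 8.08 and 8.41 at 10 h. The 10 h arrays stood above all others, with a log2 difference of 3.43 (SE 0.20, limma adjusted p = 5.76e-07), and the brighter one gave 2.83 (SE 0.25). At 0 h the dimmer probe set lay near 4.73, the highest negative control, so its difference may be understated. LEF1, a DNA-binding partner of the Wnt pathway, read 8.61, 8.32 and 7.72 at 0 h, 8.81, 8.66 and 8.60 at 2 h, and 9.48 and 9.69 at 10 h on the probe set that was called at 10 h (log2 difference 1.37, SE 0.24, limma adjusted p = 0.0211). The other LEF1 probe sets had differences of 1.06 and 0.48 and were not called. HES1 was thus lower at 10 h while IL7R and LEF1 were higher. A probe set of MYC, a growth-promoting transcription factor, named after its value was seen, was lower by a log2 difference of -1.01 with a limma adjusted p of 0.057, and was not called.

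None of the other lists held a called probe set. The 15 probe sets of the ligands had a median difference of -0.03 at 10 h, and DLL4, the one with the smallest p above background, had -0.23. The 18 probe sets of the cleavage machinery had a median of 0.03, with APH1A, a subunit of gamma-secretase, at 0.71 on 1 of its 3 probe sets (SE 0.22, limma adjusted p = 0.720) and at 0.27 and -0.02 on the others. The 15 probe sets of coactivators had a median of -0.02, with the acetyltransferase KAT2B at 0.44. The 41 of corepressors had a median of 0.04, with CTBP1 at 0.49 on 1 of its 4 probe sets and between 0.10 and 0.37 on the others. The 36 of receptor turnover had a median of 0.01, with the ubiquitin ligase ITCH at -0.47 on 1 of its 6 probe sets and between -0.03 and 0.18 on the others. The 11 of receptor glycosylation had a median of -0.05, with the glycosyltransferase MFNG at 0.32 on 1 of its 3 probe sets and at -0.05 and -0.09 on the others. The 16 of the other HES and HEY genes had a median of -0.05, with HES2 at -0.30 on its probe set above background. Of these 16, 11 had a mean below the highest negative control. The receptor NOTCH4 had -0.12 and 0.06 on its 2 probe sets.

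**Figure D4:**
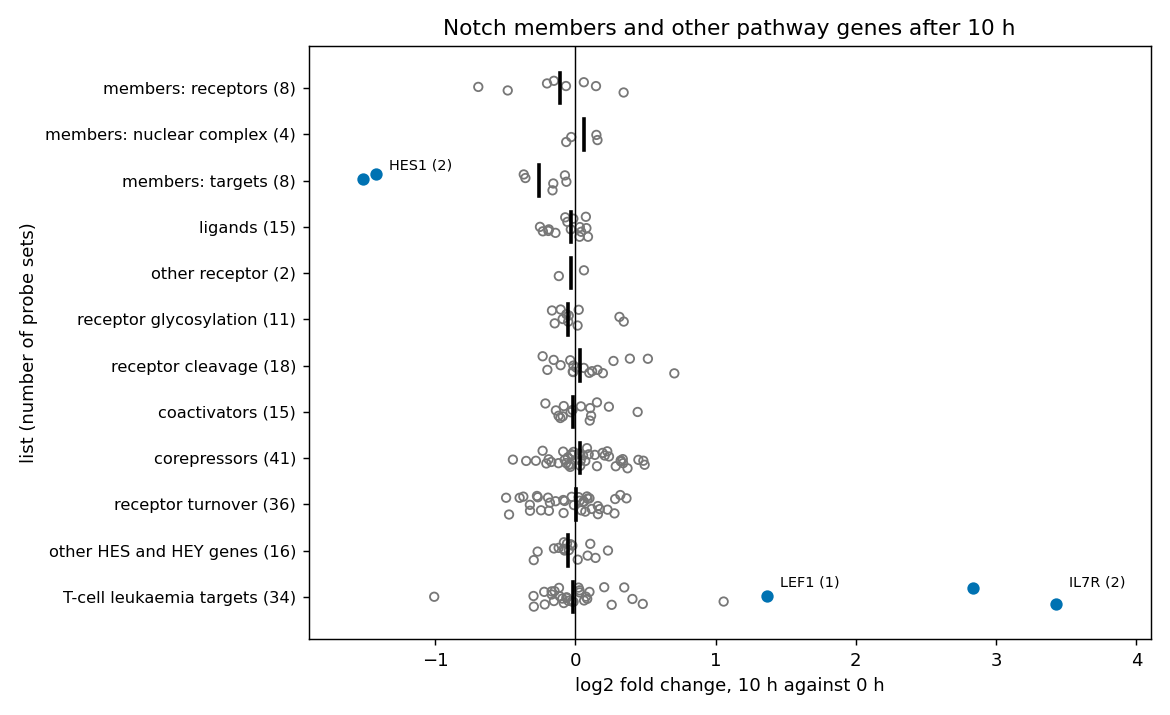
Log2 difference at 10 h against 0 h of each member probe set and each probe set of the other pathway lists, with the median of each list as a bar and called probe sets filled. HES1 lies at -1.42 and -1.51, and IL7R at 2.83 and 3.43, while the medians of the other lists lie between -0.05 and 0.04.

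The probe sets most like the brightest HES1 probe set over the 8 arrays, by the root-mean-square difference of centred log2 values among 240 candidates, were TTC7B at 0.49, ABCG1 at 0.54 and PSMB4 at 0.54, against a median of 1.12. The SD of that HES1 probe set was itself 0.63, so the likeness was weak. At 2 h against 0 h these 3 had log2 differences of 0.27, 0.10 and -0.88, where HES1 had -0.37. Among 2092 candidates, those most like the brighter NOTCH1 probe set were SLC19A1 at 0.17, USP31 at 0.17 and CD300A at 0.17, against a median of 0.51. None of these 6 was called at 10 h.

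The labelled cell type was checked against marker genes. Of the T-lineage markers, 14 of 15 genes were above the negative controls, and CD2 was not, at 4.72. Their mean level per array ran from 8.85 to 8.93 at 10 h and from 8.71 to 9.02 at 0 h. Of the B-cell markers 4 of 7 were above, with CD79A at 8.78 and MS4A1 at 4.09, and their mean level ran from 5.06 to 5.10 at 10 h and from 4.93 to 5.27 at 0 h. Of the myeloid markers 1 of 8 was above, CD14 at 5.17, and their mean ran from 3.78 to 3.92 at 10 h and from 3.80 to 4.07 at 0 h. In bulk RNA, fewer cells of a kind and less RNA per cell cannot be told apart. NR3C1, TSC22D3 and FKBP5 were chosen as a check of the hormone response. At 10 h, 9 of their 11 probe sets were called higher, against 0.245% of all probe sets. At 2 h, 1 was called higher, against 0.00916%. The log2 differences at 10 h ran from -0.16 to 4.30, the highest on 1 of the 3 TSC22D3 probe sets. Hormone and time in stripped medium cannot be told apart for these genes either.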

How the data were processed

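Transcripts of CCRF-CEM-C7-14 cells were read on 8 single-colour arrays with 54675 probe sets. The authors deposited log2 values, 1 per probe set and array, and made them with RMA per the submitters' processing notes; no RMA version is named there. Array medians ran from 4.68 to 5.01, and the number of arrays limits the precision. Time labels gave groups of 3 (0 h), 3 (2 h) and 2 (10 h) arrays. Identical values between any pair of arrays made up no more than 0.269%.

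Symbols are those of the platform annotation: 41091 had 1 symbol, 1801 several and 11721 none, and 62 were controls. For the other 54613, limma 3.58.1 (R 4.3.3) estimated 1 mean for each time from all 8 arrays, with lmFit, contrasts and eBayes and 5 residual degrees of freedom. P-values are two-sided, adjusted by Benjamini-Hochberg over all probe sets, and called below 0.05. The 27 Bacillus probe sets were the negative controls. The fit was tested on simulated data.

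Probe sets of a gene are told apart in the text by brightness. Members and gene lists were chosen with earlier results of these data known. Named genes were all members, called pathway probe sets, and, for a list with none called, the probe set above background with the smallest p at 10 h. Likeness was taken over other single-symbol probe sets above background whose SD was at least that of the member. Promoter windows came from RefSeq, GRCh38.p14. Alternatives were median centring, quantile normalization, a trended robust variance, array weights and a dim filter. Others were 1 value per gene, a replicate block, only the compared times and each array left out. The value per gene was its brightest probe set or the mean of its probe sets. Either is counted among the alternatives of the brightest probe set.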

Additional observations from a re-analysis of the deposited data

How the results depend on the processing

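The 19 alternatives left the log2 difference of the brightest HES1 probe set at 10 h between -1.77 and -1.02, called in 17, and that of the second between -1.82 and -1.06, called in 14 of 17. The count of members called at 10 h against 0 h, 2 as reported, was 1 with median centring (the second had an adjusted p of 0.056), 1 with the brightest probe set per gene and 1 with the mean of a gene's probe sets, where HES1 gives a single value. It was 0 without the 3 arrays with the lowest medians, chosen after seeing the data, 2 with a block for them, also chosen then, and 0 to 2 with each array left out, where 0 came without 10 h replicate 1; both zeros leave 1 array at 10 h. Between 10 h and 2 h, 0 as reported became 1 with the trended robust variance, the second HES1 probe set with an adjusted p of 0.0439. The total called lower at 10 h against 0 h over all probe sets, 3 as reported, also differed. It was 2 without 0 h replicate 1, 4 with median centring, 9 with quantile normalization and 20 with array weights. All of these settings keep both arrays at 10 h, and settings that leave 1 are not listed here. Pathway calls between 10 h and 2 h, 2 as reported, were 1 with the brightest probe set per gene, 1 with the mean and 1 without the 3 arrays with the lowest medians, and 3, MYC added, with the trended robust variance and with array weights. IL7R was called at 10 h in 19 of 19, LEF1 in 13 and MYC in 9. The brighter NOTCH1 probe set ran at 10 h against 0 h from -0.94 to -0.35 and was called in 0 of 19, and no member was called at 2 h. Of 1068 member values under alternatives, 5 lost a call, 1 gained one, and 27 uncalled ones moved by at least the SD within a time. The sign turned in 81, none of them called, over 32 of the 60 member differences, among them HES4 and DTX1 at 10 h against 0 h, which reached 0.01 and 0.07. Where a call was lost, the cause was not tested.

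For arrays of the same replicate number, 1 of 7 correlations of deviations was above 0.1, with a range of -0.28 to 0.28. The 2 arrays at 10 h deviate from their mean by equal and opposite amounts, so their correlations with any other array are opposite too. For 0 h replicate 1 they were -0.24 and 0.24. These correlations cannot show whether the numbers mark pairs. The numbers were not taken as pairs, and with the replicate block 2 members were called at 10 h against 0 h.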
